A study of Rattus norvegicus with 54 samples.

Results

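A set of 10 genes of the cellular response to low oxygen was followed through late gestation and birth in rat liver and skeletal muscle. They encode the hypoxia-inducible factor (HIF) subunits *Hif1a* and *Epas1*, the oxygen sensors *Egln1* and *Egln3*, the secreted factors *Epo*, *Vegfa* and *Adm*, and the intracellular or membrane proteins *Bnip3*, *Ankrd37* and *Ca9*. The genes were chosen by name and found through the gene symbol of their probe sets, and 10 of 10 were measured, by 12 of the 15310 probe sets that carry 1 gene symbol (10 of 14506 genes). *Ca9* is listed there under its other symbol, *Car9*. *Egln1* and *Bnip3* have 2 probe sets each, and the brighter one is given unless both are named.

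The animals were Wistar rats, for which the labels name no treatment, and each microarray held 1 sample of liver or of skeletal muscle from the hind limb. Liver was taken on foetal days 16, 20 and 22 (F16, F20, F22), on postnatal days 1 and 4 (P1, P4) and from adults at P90, with 4 arrays per group (24 arrays). Muscle was taken at F16, F18, F20, F22, P1 and P4, with 5 arrays per group (30 arrays), and no adult muscle is among the samples. Foetuses were delivered by Caesarean section from sacrificed mothers, so that F22 animals had not been through labour. P1 animals were neonates given as 1 day old, and the sources used here do not give the hours after birth. The labels call the arrays of a group biological replicates, and the sources used here do not say which of them were littermates.

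Values are log2 signals, so that a difference of 1 is a doubling. They are compared for the same probe set and within a tissue, because probe sets differ in brightness and each tissue was normalised by itself. The arrays of a group correlated with a mean r of 0.983 to 0.997 in liver and 0.988 to 0.996 in muscle, and array medians were 7.06 to 7.16 and 7.98 to 8.07. *Alb*, the albumin gene of hepatocytes, averaged 13.70 to 13.86 over the liver groups, and *Acta1*, the skeletal muscle actin, averaged 12.66 to 14.14 over the muscle groups. The muscle samples also held transcripts of skin and cartilage, since *Krt14*, a keratin of basal epidermis, averaged 10.51 at F16 and 12.33 at F22. *Alb* in single muscle arrays ran from 7.02 to 12.21. Liver arrays held muscle transcripts to an uneven degree, since *Acta1* ran from 8.20 to 11.85 in F22 livers and from 7.90 to 8.28 in P1 livers. In such bulk tissue, fewer cells of a type and less RNA per cell cannot be told apart.

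In the textbook account, the HIF alpha subunits encoded by *Hif1a* and *Epas1* are made continuously and are destroyed as long as oxygen is plentiful. Prolyl hydroxylases, the products of the *Egln* genes, use oxygen to mark the subunits for the VHL ubiquitin ligase. When oxygen is scarce the subunits persist, pair with ARNT and bind short ACGTG or GCGTG sequences near target genes, among them *Egln3* itself, so that the sensor is also a target. This control acts on protein, and a transcript level of *Hif1a* or *Epas1* is not a measure of HIF activity. Birth takes the animal from the low oxygen of the womb to air, and the foetal liver is a blood-forming organ and a source of erythropoietin.

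The core letters of the HIF binding motif are shown for promoter windows of members that moved at birth or that hold several copies, and for *Epo*, the hormone gene of the set, because they are what a reader would look for first in a target gene. RefSeq promoter windows of the rat build GRCr8, each 250 bases before to 50 bases after the annotated start, were available for 10 of 10 genes and were searched for ACGTG and GCGTG on both strands. Of 33469 such windows, 41.6% held at least 1 match, 19.2% at least 2 and 8.15% at least 3. *Ankrd37* held 5 matches, *Bnip3* 4, *Hif1a* 3, *Egln1* 2, and *Epo* and *Ca9* 1 each. *Epas1*, *Egln3*, *Vegfa* and *Adm* held none in their windows, which says only that these letters are not in this stretch. Capitals mark the matches, read along the gene strand. CACGTG reads the same on both strands and counts as 2 overlapping matches, and CACGC is GCGTG read from the opposite strand.
*Bnip3*, chr1:203155045-203155073, minus strand: gcgCACGCgccgCACGTGccaCACGCgcc
*Ankrd37*, chr16:53001481-53001510, plus strand: ctaCACGTGtcactgtttgggtACGTGagg
*Egln1*, chr19:69804721-69804749, minus strand: gcccggcccgccGCGTGcgcgcggccccc
*Egln1*, chr19:69804663-69804691, minus strand: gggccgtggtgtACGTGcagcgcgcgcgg
*Hif1a*, chr6:98359657-98359686, plus strand: cacacagacgagCACGTGagctgggcagct
*Epo*, chr12:24841238-24841266, plus strand: tgaagactcacaGCGTGgacactggccca
The 4 matches of *Bnip3* lie within 108 to 86 bases before its start, and those of *Ankrd37* shown here lie from 23 bases before the start to the start itself. The presence of a match is a description of sequence. Binding was not measured in these samples.

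One liver array, P1 replicate 1, stood apart from its group, in these genes and over the whole array. Its mean correlation with the other P1 livers was 0.983, the lowest of the 54 arrays. Of 8 endothelial genes it was the lowest P1 array in 5 and the highest in 1. Of 8 chondrocyte genes, which were dim in P1 livers (array averages 6.53 to 6.77), it was the highest in 6 and the lowest in 1. Adipocyte genes went both ways, with 5 highest and 3 lowest of 8. Hepatocyte genes (4 highest and 3 lowest of 12) and keratinocyte genes (1 and 1 of 6) went both ways as well. The counts of highest and lowest were 1 and 5 of 9 cell cycle, 4 and 1 of 9 erythroid and 2 and 4 of 8 stellate cell and pericyte genes. They were 2 and 4 of 10 macrophage, 4 and 2 of 9 myofibre and 2 and 1 of 8 fibroblast genes. Of 13 VEGF and angiopoietin ligands and receptors this array was the highest in 2 and the lowest in 8. Among the 10 genes it was the highest of the 4 P1 arrays in 6 and the lowest in 3, against 31.0% and 33.7% of all probe sets. *Bnip3*, whose protein sits in the outer mitochondrial membrane and promotes mitophagy, read 12.71 there and 10.84, 11.66 and 11.19 in replicates 2 to 4. *Egln3* read 9.06 against 7.81, 8.66 and 8.04, and *Egln1* read 8.97 against 7.86, 8.32 and 8.20. On this array *Bnip3* and *Egln3* lay above every F22 array, and *Egln1* lay within the F22 range of 8.75 to 9.10. *Bnip3*, *Egln1* and *Egln3* put the 4 P1 livers in the same order, an order found in 6.85% of all probe sets.

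Other genes of the HIF pathway went both ways on that array. Of 15 other genes of HIF subunits, oxygen sensors, cofactors and the ubiquitin ligase, it was the highest P1 array in 8 and the lowest in 5 (53.3% and 33.3%). It was the highest P1 array in 13 and the lowest in 4 of 22 HIF target genes of glucose use (59.1% and 18.2%), and the highest in 16 and the lowest in 8 of 37 other HIF target genes (43.2% and 21.6%), against 31.0% and 33.7% of all probe sets. *Hif3a*, a HIF subunit that is itself induced by low oxygen, read 10.47 there, 8.50 to 8.85 in the other P1 livers and 10.76 to 10.95 at F22, and *Ndrg1*, a stress-response gene, read 11.09, 9.46 to 9.71 and 11.14 to 11.47. Among genes picked after their values were seen, *Gbe1*, the glycogen branching enzyme, read 11.19 against 9.19 to 9.45, and *Ddit4*, an inhibitor of mTORC1 signalling, read 9.57 against 7.87 to 8.03. *Pfkfb3*, which makes an activator of glycolysis, read 8.62 against 7.40 to 7.48, and *Pdk1*, which keeps pyruvate out of mitochondria, read 10.10 against 8.99 to 9.41. Lower on this array were *Vegfa*, with 10.65 against 10.75 to 10.94, and, also picked after their values were seen, the chemokine *Cxcl12* (8.96 against 10.20 to 10.64), *Plin2*, a lipid droplet coat protein (10.05 against 11.15 to 11.51), *Hmox1*, haem oxygenase (8.88 against 9.19 to 9.74) and *Angptl4*, an inhibitor of lipoprotein lipase (9.30 against 9.66 to 9.97). The label of this animal ends in a number and those of the other P1 livers end in letters, a code that the sources used here do not explain. For the 10 genes, calls into or out of liver P1 that changed without P1 replicate 1 are therefore given both ways. Changes of other named genes include this array unless stated, and some moved without it. *Gabarapl1* changed by 0.99 from F22 to P1 with it and by 0.66 without, *Ndrg1* by -1.32 and -1.70, and *Plin2* by 1.20 and 1.53. What sets this array apart was not tested.

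**Figure D1:**
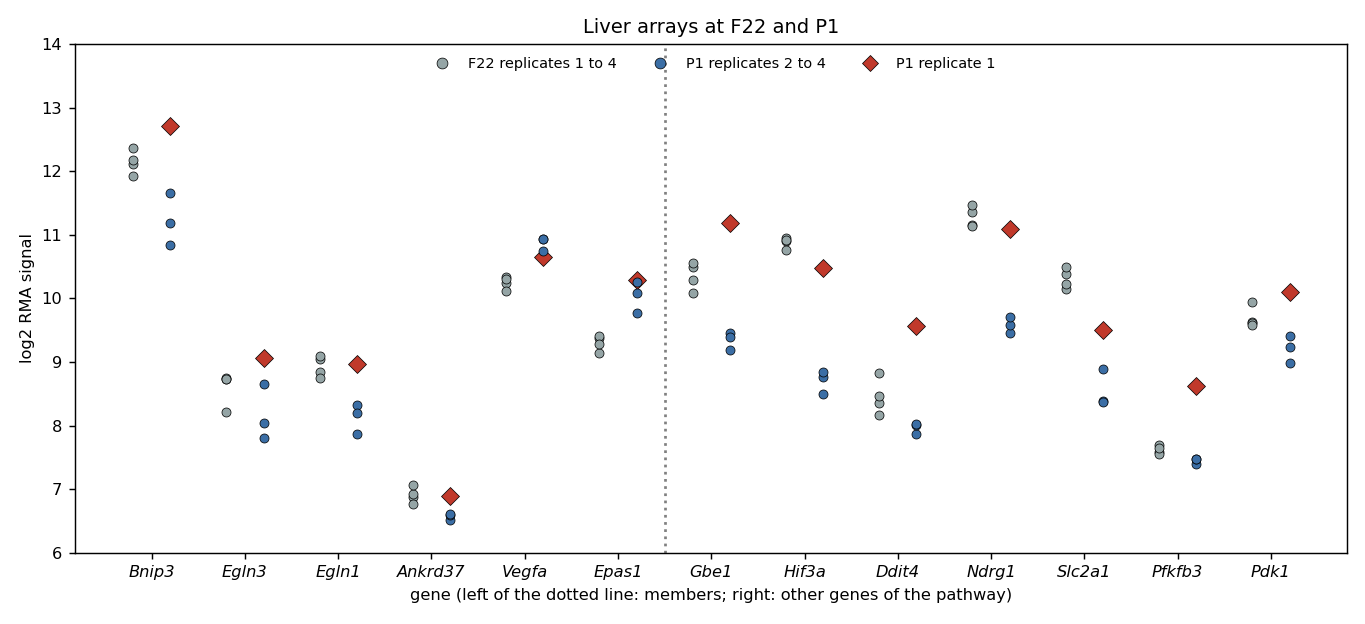
Log2 signal of 6 of the 10 genes (left of the dotted line) and 7 other HIF pathway genes in single liver arrays, with F22 in grey, P1 replicates 2 to 4 in blue and P1 replicate 1 as a red diamond, to be compared within a gene. For *Bnip3* the diamond lies at 12.71 and the other P1 arrays lie between 10.84 and 11.66, and for *Vegfa* it lies lowest, at 10.65. In each of the 7 other genes the diamond is the highest P1 array, but *Gbe1*, *Ddit4*, *Pfkfb3* and *Pdk1* were picked after their values were seen. HIF target genes in which it was the lowest, such as *Cxcl12* and *Plin2*, are not drawn.

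Across birth, from F22 to P1, *Epas1* and *Vegfa* rose and *Egln1* fell in liver, while *Adm* and *Bnip3* rose in muscle. In liver, 3 genes rose (*Epas1*, *Vegfa*, *Adm*) and 2 fell (*Egln1*, *Ankrd37*), where 14.8% of all 15310 probe sets rose and 21.9% fell. Without P1 replicate 1, 6 of 10 were called in liver: *Bnip3* and *Egln3* joined the genes that fell and *Adm* (0.17, adjusted p = 0.13) dropped out, with 16.3% of all probe sets rising and 22.5% falling. In muscle, 4 rose (*Adm*, *Bnip3*, *Egln3*, *Epas1*) and 2 fell (*Ankrd37*, *Vegfa*), where 9.50% of all probe sets rose and 8.82% fell. The median change of the 10 genes was -0.09 in liver and -0.01 in muscle, beside 0.00 and -0.01 over all probe sets, so that the genes did not share a direction. The liver count was 3 when F22 replicate 2, F22 replicate 3 or P1 replicate 4 was left out, and the muscle count was 3 without P1 replicate 2 or P1 replicate 4.

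**Figure D2:**
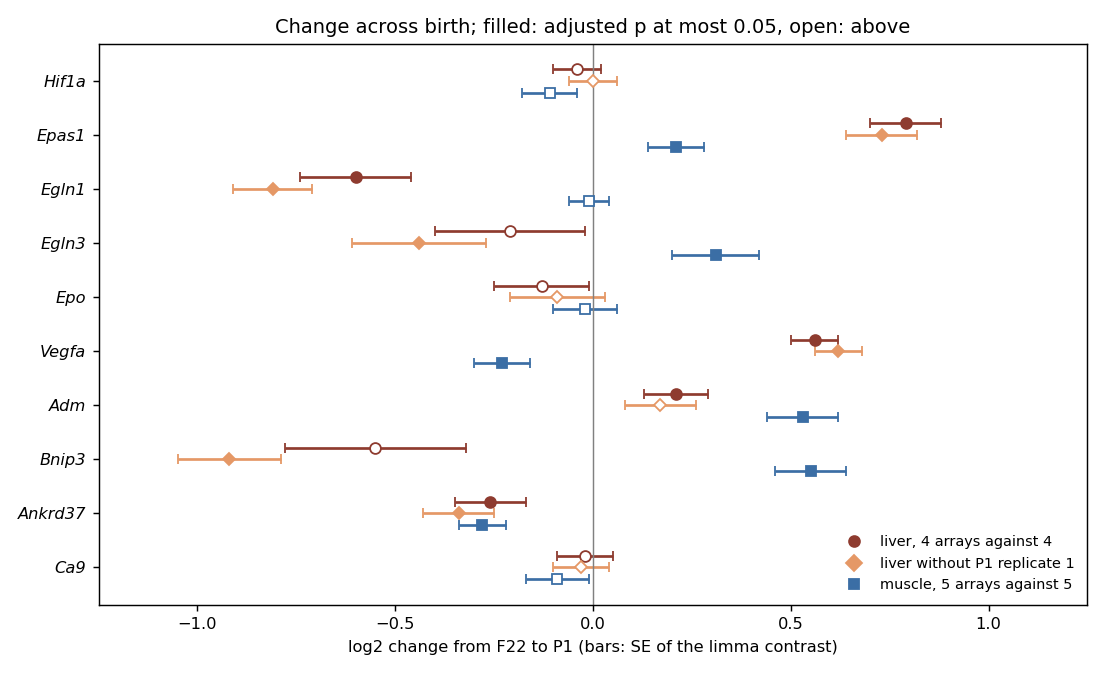
Log2 change of each gene from F22 to P1 in liver (4 against 4 arrays), in liver without P1 replicate 1 and in muscle (5 against 5 arrays), with bars of 1 standard error of the limma fit and filled symbols for changes that passed the test. *Vegfa* lies above 0 in liver (0.56) and below 0 in muscle (-0.23), and *Bnip3* lies at -0.55 in liver and 0.55 in muscle.

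Most genes varied over the whole course, as most probe sets did. In liver, 9 of 10 passed the F-test over the 6 time points (84.3% of all probe sets), the exception being *Ca9* (adjusted p = 0.19). In muscle 10 of 10 passed (75.0%). Before birth, from F16 to F22, 4 rose and 3 fell in liver (17.9% and 30.4% of all), and 5 rose and 2 fell in muscle (21.9% and 33.8%). In the first step of the muscle course, from F16 to F18, 4 rose and 2 fell (14.1% and 19.3%). Groups whose arrays did not overlap were common. From F16 to F22 this held for 7 of 10 genes in liver (47.4% of all probe sets) and 6 in muscle (43.8%). From F22 to P1 it held for 2 (29.8%) and 5 (13.9%), and from P1 to P4 for 2 (11.4%) and 2 (23.8%). In liver from P4 to P90 it held for 8 (53.2%).

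After birth the picture differed again by gene. From P1 to P4 in liver *Epo* rose and *Egln3* fell, 1 gene each way (4.87% and 6.10% of all). Without P1 replicate 1 the count was 5, since *Epas1*, *Adm* and *Bnip3* rose as well (0.29, 0.29 and 0.43), beside 6.45% and 8.80% of all probe sets. From P1 to P4 in muscle 0 rose and 3 fell, *Egln3*, *Bnip3* and *Ca9* (19.2% and 14.7%). From P4 to the adult liver 3 rose and 5 fell (28.8% and 27.1%), and this count of 8 was 4 without P4 replicate 3 or P90 replicate 4 and 5 without P90 replicate 1.

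The alpha subunits ran in opposite directions in muscle. *Hif1a* encodes the subunit found in nearly all cells, and *Epas1* encodes HIF2A, best known from endothelium, liver and the cells that make erythropoietin. In muscle *Hif1a* read 11.74, 11.87, 11.78, 11.83 and 11.69 at F16, and 11.25, 11.29, 11.06, 11.21 and 10.87 at F22. Its group means declined at each step, from 11.78 at F16 over 11.14 at F22 to 10.89 at P4. The F16 and F22 arrays did not overlap, and the gene fell by 0.65 (SE 0.07, adjusted p = 2.8e-09). From F22 to P1 the difference was -0.11 (adjusted p = 0.29) and the arrays overlapped, and it passed (-0.18) without F22 replicate 5, one of 4 muscle arrays described further on (adjusted p = 0.042), or without all of these (adjusted p = 0.022).

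*Epas1* in muscle went up over the same days, from 9.31, 9.34, 9.43, 8.92 and 9.36 at F16 to 10.12, 9.91, 10.17, 10.11 and 10.19 at F22. It rose by 0.83 (SE 0.07, adjusted p = 7.5e-11), without overlap. At P1 it read 10.28, 10.35, 10.38, 10.28 and 10.29, above every F22 array, and the rise at birth was 0.21 (SE 0.07, adjusted p = 0.039). That call was lost in 8 of 30 fits that left out 1 array (F22 replicate 1, 2 or 4, or any P1 array), and over the 30 fits the change ran from 0.17 to 0.24. Endothelial markers, 8 measured, averaged 9.46 at F16, 9.94 at F22 and 10.14 at P1, with 7 of 8 rising from F16 to F22, and their part in the *Epas1* result was not tested.

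In liver *Epas1* had its large step at birth. It read 9.37, 9.41, 9.14 and 9.28 at F22 and 10.29, 10.25, 9.77 and 10.08 at P1. All P1 livers lay above all F22 livers, and the transcript rose 1.73-fold (0.79, SE 0.09, adjusted p = 1.5e-07), or by 0.73 without P1 replicate 1. The order of the group means was P90 (10.91), P4 (10.33), P1 (10.09), then F22 and F20 (both 9.30) and F16 (8.92). Of the neighbours in this order, P4 and P1 overlapped, as did F22 and F20, and the other steps did not. Hepatocyte markers, 12 measured, had a median change of 0.15 from F22 to P1, and their average went from 11.65 to 12.78 mainly through *Cyp2e1* (5.30), *Pck1* (5.15) and *Tat* (2.32), while *Alb* averaged 13.83 at both. Over the same step endothelial markers averaged 8.35 and 8.59 and erythroid markers 11.76 and 10.97, and the part of these shifts was not tested.

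*Hif1a* in liver moved little. Its lowest group mean was 9.85 at P1 and its highest 10.16 at F16. It fell by 0.27 from F16 to F22 (SE 0.06, adjusted p = 8.2e-04), differed by -0.04 from F22 to P1 (adjusted p = 0.64), and rose by 0.17 from P4 to P90 (adjusted p = 0.026). The last call was lost without P4 replicate 3 or 4 or P90 replicate 1 or 4 (0.15 to 0.16, adjusted p of 0.051 to 0.069).

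**Figure D3:**
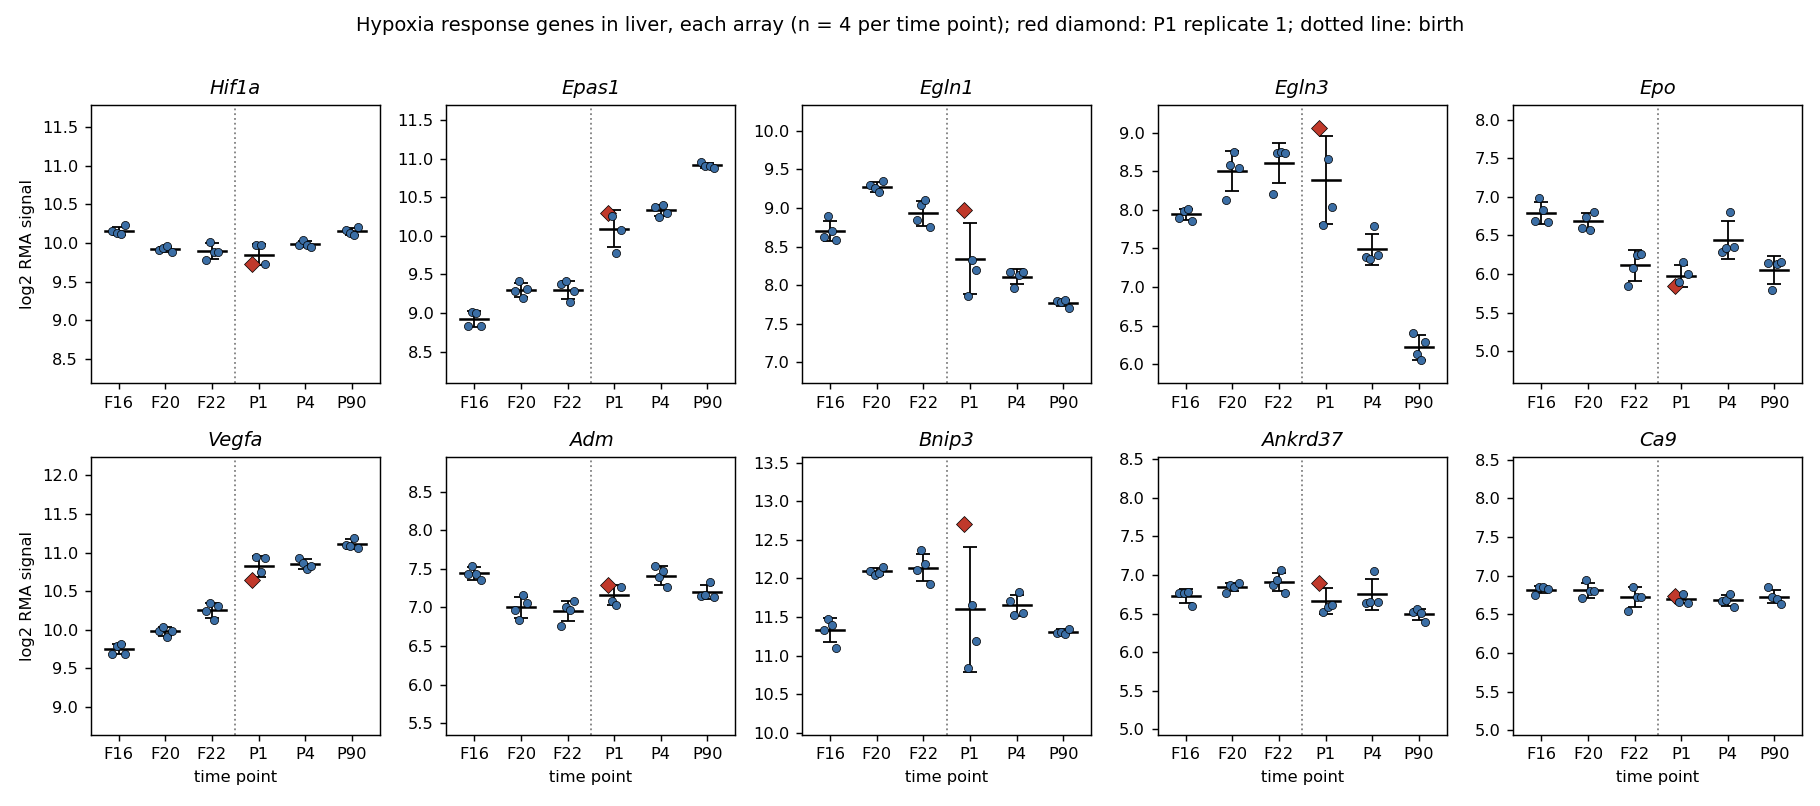
Log2 signal of the 10 genes in liver, from F16 to P90, with 4 single arrays per time point as points, P1 replicate 1 as a red diamond, and the group mean and SD as black bars (each panel spans the same height). *Epas1* and *Vegfa* climb to their highest means at P90 (10.91 and 11.11), and *Egln3* drops to 6.22.

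Of the oxygen sensors, *Egln1* encodes PHD2, the main HIF hydroxylase in most tissues, and *Egln3* encodes PHD3, which HIF induces strongly. *Egln3* had the widest range of group means of the 10 genes in both tissues, 2.39 in liver and 1.80 in muscle. In muscle it read 9.27, 8.76, 9.38, 8.52 and 8.74 at F16, and 10.48, 10.14, 10.55, 10.43 and 10.54 at F22. It rose 2.82-fold (1.50, SE 0.11, adjusted p = 1.3e-12), and no F16 array reached an F22 array.

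Around birth *Egln3* peaked in muscle. The P1 arrays read 10.74, 10.69, 10.73, 10.66 and 10.86, all above F22, and the rise was 0.31 (SE 0.11, adjusted p = 0.046). That call was lost in 18 of 30 fits without 1 array, any P1 array and F22 replicates 1, 2 and 4 among them, and over the 30 fits the change ran from 0.24 to 0.34. At P4 it read 10.13, 10.28, 10.21, 10.20 and 10.25, all below P1, and it fell by 0.52 (SE 0.11, adjusted p = 3.9e-04). Myofibre markers, 9 measured, averaged 9.89 at F16, 12.41 at F22, 12.66 at P1 and 12.64 at P4. They went up with *Egln3* before birth, with 9 of 9 rising from F16 to F22, and their part in it was not tested.

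In liver *Egln3* read 8.21, 8.73, 8.75 and 8.73 at F22, 7.39, 7.36, 7.79 and 7.41 at P4, and 6.41, 6.13, 6.05 and 6.29 at P90. It went up before birth (0.67, SE 0.19, adjusted p = 0.0062) and down after it. From F22 to P1 the difference was -0.21 (SE 0.19, adjusted p = 0.44), and without P1 replicate 1 the gene fell by 0.44 (SE 0.17, adjusted p = 0.048). From P1 to P4 it fell by 0.91 (adjusted p = 0.0036), and from P4 to P90 it fell 2.41-fold (-1.27, SE 0.19, adjusted p = 7.1e-06). The P4 and P90 arrays did not overlap. Erythroid markers, 9 measured, averaged 11.20 at P4 and 6.81 at P90, with 9 of 9 falling, and their part in the *Egln3* result was not tested.

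*Egln1* fell in liver at birth, from a level already below that of F20. Its highest group mean was 9.27 at F20, with all F20 arrays above all F22 arrays (mean 8.93). The other probe set averaged 9.24 and 8.91 there, with overlap, and this step was not tested. The brighter one read 8.84, 9.04, 9.10 and 8.75 at F22. The P1 arrays other than replicate 1 lay between 7.86 and 8.32, below all of these. It fell by 0.60 (SE 0.14, adjusted p = 0.0016), and by 0.81 without P1 replicate 1 (SE 0.10, adjusted p = 4.9e-07). Its other probe set gave -0.91 (adjusted p = 2.6e-04). From F16 to F22 both probe sets pointed up and 1 passed. The brighter one gave 0.23 (SE 0.14, adjusted p = 0.19) and the other rose by 0.46 (SE 0.18, adjusted p = 0.036). The brighter one passed too when P1 replicate 1 was left out. From P4 to P90 both pointed down and again 1 passed. The brighter one fell by 0.34 (SE 0.14, adjusted p = 0.046) and the other gave -0.24 (SE 0.18, adjusted p = 0.27). The P4 to P90 call of the brighter one was lost in 16 of 24 fits without 1 array, any P90 array and P4 replicates 1, 3 and 4 among them, and over the 24 fits the change ran from -0.38 to -0.32.

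In muscle *Egln1* rose by 0.24 from F16 to F22 (SE 0.05, adjusted p = 1.9e-04) and its difference at birth was -0.01 (adjusted p = 0.96).

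Of the secreted factors, *Vegfa*, the main growth signal for blood vessels, moved opposite ways in the tissues at birth. In liver it read 10.24, 10.34, 10.12 and 10.31 at F22, and 10.65, 10.94, 10.75 and 10.93 at P1. All P1 livers lay above all F22 livers, P1 replicate 1 included, and the gene rose by 0.56 (SE 0.06, adjusted p = 2.5e-07), or by 0.62 without that array. It had risen by 0.51 from F16 to F22 (SE 0.06, adjusted p = 5.6e-07), and it rose by a further 0.26 from P4 to P90 (adjusted p = 0.0014).

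In muscle *Vegfa* read 10.59, 10.42, 10.57, 10.58 and 10.78 at F22, and 10.46, 10.23, 10.36, 10.13 and 10.59 at P1. The groups overlapped and the gene fell by 0.23 (SE 0.07, adjusted p = 0.021), a call lost without F22 replicate 5 (-0.19), P1 replicate 2 (-0.20) or P1 replicate 4 (-0.18). It had risen by 0.28 from F16 to F18 (adjusted p = 0.003).

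*Adm* encodes adrenomedullin, a peptide that widens blood vessels. In muscle it read 8.29, 8.21, 8.25, 8.43 and 8.48 at F22, and 8.83, 8.76, 8.97, 8.85 and 8.92 at P1. Every P1 array was above every F22 array, and the rise was 1.45-fold (0.53, SE 0.09, adjusted p = 5.8e-05), after a rise of 0.56 from F16 to F22 (adjusted p = 2.9e-06). Adipocyte markers, 8 measured, moved with it, averaging 7.91 at F22 and 9.16 at P1 with 7 of 8 rising, and their part was not tested.

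In liver *Adm* was dim. Its means stayed between 6.95 at F22 and 7.44 at F16, near the array medians, where this kind of normalisation compresses changes. It fell by 0.49 from F16 to F22 (SE 0.08, adjusted p = 2.5e-05). The rise of 0.21 from F22 to P1 (SE 0.08, adjusted p = 0.047) was lost in 15 of 24 fits without 1 array, among them F22 replicates 1 to 3 and P1 replicates 1 and 4. Over the 24 fits the change ran from 0.15 to 0.26, and the F22 and P1 arrays overlapped. From P4 to P90 *Adm* fell by 0.22 (adjusted p = 0.027), a call lost without P4 replicate 1 or 3 or P90 replicate 1, 2 or 4 (-0.21 to -0.18).

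*Epo*, the hormone that drives red cell formation, was dim, with all liver arrays between 5.79 and 6.98, below the array medians. The liver values were 6.69, 6.98, 6.83 and 6.67 at F16, and 5.84, 6.08, 6.25 and 6.26 at F22. It fell by 0.68 over this stretch of foetal life (SE 0.12, adjusted p = 2.7e-05), and the groups did not overlap. The 4 P1 livers lay between 5.84 and 6.16, at P4 it read 6.29, 6.33, 6.80 and 6.35, and at P90 it read 6.14, 5.79, 6.13 and 6.16. From F22 to P1 the difference was -0.13 (adjusted p = 0.41), overlapping, and all P4 livers lay above all P1 livers, with a rise of 0.47 (SE 0.12, adjusted p = 0.01). It fell again by 0.39 from P4 to P90 (adjusted p = 0.007).

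The erythroid markers of liver took the same course in part. They averaged 12.21 at F16, 11.76 at F22, 10.97 at P1 and 11.20 at P4, with 9 of 9 falling from F22 to P1 and 4 of 9 rising from P1 to P4. Their relation to *Epo* was not tested. In muscle *Epo* fell by 0.30 from F16 to F22 (SE 0.08, adjusted p = 0.0031), and its group means after F18 lay between 6.02 and 6.05.

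*Bnip3* stood out in muscle at P1, reading 12.14, 12.23, 12.01, 11.84 and 12.11 there, against 11.65, 11.45, 11.51, 11.44 and 11.54 at F22 and 11.49, 11.57, 11.30, 11.55 and 11.66 at P4. All P1 arrays lay above all arrays of both neighbouring groups. It rose by 0.55 into P1 (SE 0.09, adjusted p = 9.2e-05) and fell by 0.55 out of it (SE 0.09, adjusted p = 3.5e-05). The other probe set gave 0.53 and -0.53, called both times.

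In liver *Bnip3* rose by 0.82 from F16 to F22 (SE 0.23, adjusted p = 0.0043), with F22 arrays at 12.11, 12.37, 12.18 and 11.93 and all F16 arrays at or below 11.47. The change from F22 to P1 rested on 1 array. With all 4 P1 arrays it was -0.55 (SE 0.23, adjusted p = 0.064). Without replicate 1 the gene fell by 0.92 (SE 0.13, adjusted p = 6.2e-06), with the 3 remaining P1 livers at a mean of 11.23 ± 0.41 (SD, n = 3), all below F22. From P1 to P4 the difference was then 0.43 (adjusted p = 0.031), and with all arrays it was 0.06.

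*Ankrd37*, a small ankyrin repeat protein known as a HIF target, fell at birth in both tissues. In muscle it read 7.62, 7.73, 7.69, 7.78 and 7.59 at F22, and 7.31, 7.44, 7.39, 7.44 and 7.43 at P1. The groups did not overlap, and it fell by 0.28 (SE 0.06, adjusted p = 0.0013). In liver it read 6.87, 6.93, 7.07 and 6.77 at F22, and 6.90, 6.52, 6.59 and 6.61 at P1. It fell by 0.26 (SE 0.09, adjusted p = 0.027) with overlap through P1 replicate 1, and by 0.34 without that array (adjusted p = 0.0029). The liver call was lost without F22 replicate 2 or 3 or P1 replicate 2, 3 or 4, with changes of -0.25 to -0.20. From P4 to P90 in liver it fell by 0.25 (adjusted p = 0.019), a call lost without P4 replicate 3 (-0.15) or P90 replicate 4 (-0.22).

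*Ca9* encodes a membrane carbonic anhydrase widely used as a marker of low oxygen in tumours. In liver its group means stayed between 6.68 and 6.82 and no step passed the test. In muscle it fell by 0.29 from F16 to F18 (SE 0.08, adjusted p = 0.006) and by 0.27 from P1 to P4 (SE 0.08, adjusted p = 0.0099), and the difference at birth was -0.09 (adjusted p = 0.51).

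**Figure D4:**
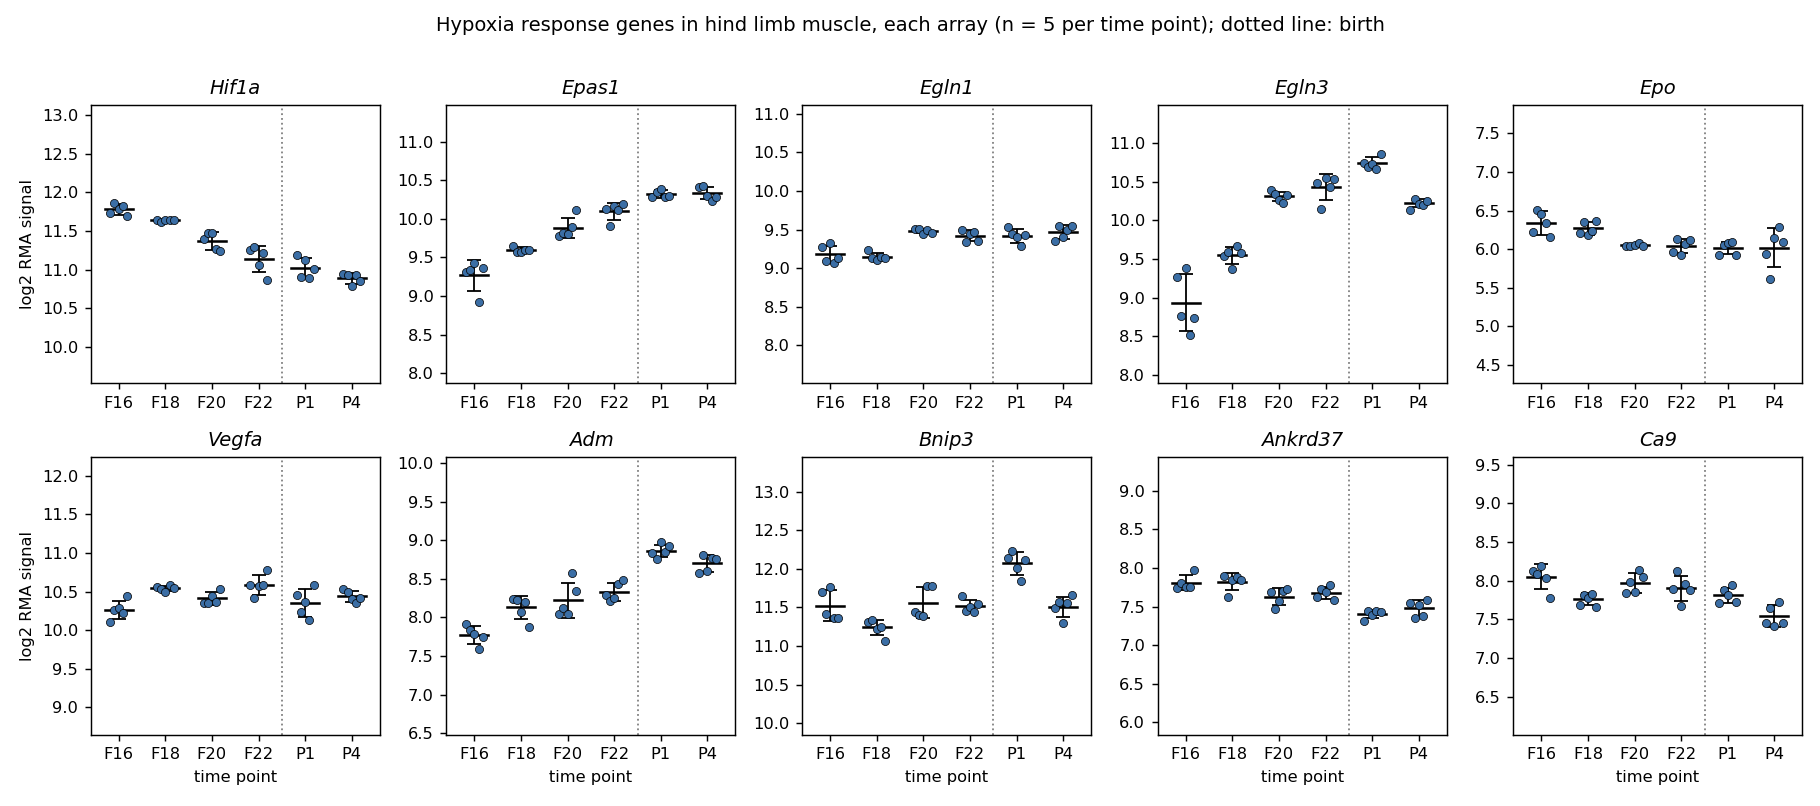
Log2 signal of the 10 genes in muscle, from F16 to P4, with 5 single arrays per time point as points and the group mean and SD as black bars (each panel spans the same height). *Bnip3* and *Egln3* have their highest means at P1 (12.07 and 10.74), and *Hif1a* and *Epas1* run in opposite directions.

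The change at birth was compared between the tissues gene by gene, as the liver change minus the muscle change in 1 fit of all 54 arrays. It differed for 5 of 10 genes, beside 32.0% of all probe sets. *Bnip3* differed most (-1.09, SE 0.23, adjusted p = 2.4e-04, and -1.46 without liver P1 replicate 1), followed by *Vegfa* (0.80, SE 0.10, adjusted p = 1.0e-08). *Egln1* (-0.59, adjusted p = 8.8e-04), *Epas1* (0.58, adjusted p = 6.8e-05) and *Adm* (-0.32, adjusted p = 0.041) differed too. *Egln3* did not pass (-0.52, adjusted p = 0.063), and passed without that liver array (-0.74, adjusted p = 0.0026), without liver F22 replicate 1 (-0.65) or without liver P1 replicate 3 (-0.61). The *Adm* call was lost in 10 of 54 fits without 1 array, which left out liver F22 replicates 2 to 4, liver P1 replicates 2 and 3, muscle F22 replicates 1 to 3 and muscle P1 replicates 3 and 5, and over the 54 fits the difference ran from -0.39 to -0.28.

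The foetal course from F16 to F22 differed for 7 of 10 genes, beside 45.7% of all probe sets. *Adm* differed most, with -0.49 in liver and 0.56 in muscle (difference -1.04, SE 0.12, adjusted p = 9.0e-10). *Egln3* rose in both tissues, by less in liver (difference -0.83, adjusted p = 0.0014), and *Hif1a* fell in both, by less in liver (difference 0.38, adjusted p = 6.5e-04). *Bnip3* rose in liver and was at 0.00 in muscle (difference 0.82, adjusted p = 0.0034). The other differences were -0.45 for *Epas1*, -0.39 for *Epo* and 0.30 for *Ankrd37*. The *Epo* call was lost without liver F16 replicate 2 (-0.33) or liver F22 replicate 1 (-0.30), and the *Ankrd37* call without liver F22 replicate 3 (0.25). Cell type markers shifted widely over the same days. In liver 10 of 10 macrophage (median 1.43) and 11 of 12 hepatocyte genes rose, and 6 of 9 erythroid, 7 of 8 fibroblast and 9 of 9 cell cycle genes fell. In muscle 9 of 9 myofibre (median 2.44), 6 of 6 keratinocyte (median 2.56), 8 of 10 macrophage and 7 of 8 fibroblast genes rose, and 9 of 9 cell cycle genes fell. Of 8 stellate cell and pericyte genes, 3 rose and 5 fell in liver. Of 8 endothelial genes, 4 rose in liver and 7 in muscle, with 0 falling. The part of these marker shifts in the differences between tissues was not tested.

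The counts of pathway genes that follow for F22 to P1 are read against all probe sets, of which 14.8% of those in liver rose and 21.9% fell, while in muscle 9.50% rose and 8.82% fell. Of 15 other measured genes of the HIF machinery (remaining subunits, sensors, cofactors and the ubiquitin ligase), the liver had 2 that rose and 5 that fell from F22 to P1, and muscle had 3 and 0. *Hif3a* fell by 1.73 in liver (SE 0.24, adjusted p = 3.9e-06), and its change was -2.17 without P1 replicate 1. In muscle it read 10.59 at P1 on average and 8.46 at P4, where it fell by 2.13 (SE 0.05, adjusted p = 7.1e-22), after a difference of 0.15 at birth (adjusted p = 0.056). *Egln2*, which encodes the hydroxylase PHD1, rose in both tissues (0.53 and 0.16), and *Hif1an*, the asparagine hydroxylase that blocks HIF transactivation, fell by 0.28 in liver. In muscle *Cited2*, which competes with HIF for its coactivator, rose by 0.48 and the ubiquitin ligase *Siah1* by 0.36. Before birth, the liver had 2 that rose and 8 that fell (17.9% and 30.4% of all probe sets), and muscle 2 and 9 (21.9% and 33.8%).

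Among HIF target genes of glucose uptake, glycolysis and glycogen, calls were mostly falls in liver and rises in muscle at birth. Of 22 measured, 2 rose and 8 fell in liver (median -0.13, all probe sets 0.00) and 5 rose and 1 fell in muscle (median 0.08, all probe sets -0.01). The liver counts were 1 and 11 without P1 replicate 1. In liver *Slc2a1*, the glucose transporter GLUT1 of foetal tissues, fell by 1.53 (SE 0.18, adjusted p = 3.1e-07), the hexokinases *Hk1* and *Hk2* by 0.85 and 0.56, and *Gys1*, a glycogen synthase, by 0.69. In muscle *Gbe1* rose by 0.55 (SE 0.08, adjusted p = 9.0e-06) and *Pfkfb3* by 0.49. From P1 to P4 in muscle, 2 of the 22 rose and 13 fell (19.2% and 14.7% of all probe sets). The liver change at birth minus the muscle change was called for 12 of the 22 genes, with 1 above 0 and 11 below (median -0.28, all probe sets 0.00), beside 32.0% of all probe sets.

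Of 37 other HIF target genes, the liver had 8 that rose and 6 that fell from F22 to P1, and muscle had 7 and 3, beside 14.8% and 21.9% of all probe sets in the one tissue and 9.50% and 8.82% in the other. Without liver P1 replicate 1 the genes that fell numbered 11. *Angptl4*, which is also induced by fasting and fatty acids, rose in both tissues (2.45 in liver, adjusted p = 4.4e-12, and 0.85 in muscle, adjusted p = 8.3e-06). *Plin2* rose by 1.20 in liver, and *Ndrg1* and the lipoprotein receptor *Vldlr* fell there (-1.32 and -0.95). In muscle *Edn1*, the vessel-narrowing peptide endothelin, rose by 0.76, *Nt5e*, an enzyme that makes adenosine, by 0.61, and *Hmox1* by 0.56. Several of these genes have regulators other than HIF.

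Partners of the secreted factors were counted likewise. Of 13 ligands and receptors of the VEGF and angiopoietin families, 3 rose and 1 fell in liver at birth (*Tie1* 0.51, *Flt4* 0.40, *Vegfc* 0.30, *Nrp1* -0.35; 4 and 0 without P1 replicate 1), and 2 rose in muscle (*Vegfd* 0.74, *Angpt2* 0.34). Of 8 adrenomedullin receptor genes and relatives, 2 rose and 1 fell in liver (*Ramp2* 0.32, *Ramp1* 0.25, *Adm2* -0.79). In muscle 1 of these rose, *Calcrl*, the receptor that binds adrenomedullin together with a RAMP protein (0.37, adjusted p = 0.0029). Of 11 genes of erythropoietin signalling, 0 rose and 5 fell in liver, among them the receptor *Epor* (-0.65, adjusted p = 2.9e-06) and its kinase *Jak2* (-0.55), together with the erythroid markers. In muscle 5 of the 11 rose and 0 fell, led by *Cish* (0.50), a feedback inhibitor of cytokine signalling.

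Some genes of mitophagy, the process that *Bnip3* serves, rose at birth in both tissues, and others fell in liver. Of 11 measured mitophagy and BH3 genes, the liver had 6 that rose and 4 that fell, and muscle had 4 and 0. Those that fell in liver were *Bcl2* (-0.38), *Bnip3l* (-0.28), the gene most like *Bnip3*, *Fundc1* (-0.22) and *Gabarap* (-0.13). Without P1 replicate 1 the liver counts were 6 and 2, and *Bnip3l* and *Bcl2* were the 2 that fell. *Pink1* (0.83 and 0.35), *Gabarapl1* (0.99 and 0.34), *Map1lc3b* (0.60 and 0.14) and *Sqstm1* (0.48 and 0.28), whose proteins mark mitochondria for removal or link cargo to the autophagosome membrane, rose in liver and in muscle. Of 13 other carbonic anhydrases, the liver had 4 that rose, led by the mitochondrial *Car5a* (1.84), and 3 that fell, and muscle had 3 that rose and 0 that fell, led by the mitochondrial *Car5b* (2.30).

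A set of 4 muscle arrays (F16 replicate 5, F20 replicates 4 and 5, and F22 replicate 5) had been set aside in earlier work on these data and was left out here as an alternative. Of these, F22 replicate 5 and F20 replicate 4 had a lower mean r with their group (0.988 and 0.991) than any other F22 or F20 array (at least 0.993). By this measure F16 replicate 5 (0.993, next array 0.994) and F20 replicate 5 (0.993, as for F20 replicate 3) hardly differed from their groups. In single genes they did. F20 replicate 5 read 11.78 for *Bnip3* (replicates 1 to 3 11.39 to 11.44) and 10.11 for *Epas1* (9.78 to 9.81). F16 replicate 5 read 7.78 for *Ca9* (replicates 1 to 4 8.04 to 8.19) and 10.44 for *Vegfa* (10.11 to 10.29). For *Egln1* and *Egln3* both lay within the range of those replicates. Without this set no count of the 10 genes in muscle moved beyond 1.5 times. The differences between tissues from F16 to F22 of *Epo* (-0.33, adjusted p = 0.076) and *Ankrd37* (0.24, adjusted p = 0.064) did not pass without it. At birth the adrenomedullin genes that rose in muscle then numbered 3 and the carbonic anhydrases 5 with 1 falling, and the genes that fell numbered 3 of the glucose list and 6 of the other HIF targets.

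Cell type markers moved at birth as well. In liver from F22 to P1, 0 of 9 erythroid genes rose and 9 fell, 0 of 9 cell cycle genes rose and 9 fell, and 5 of 12 hepatocyte, 4 of 8 endothelial, 4 of 8 stellate cell and pericyte and 2 of 8 adipocyte genes rose with 0 falling. Of 10 macrophage genes 1 rose and 1 fell, 2 of 9 myofibre (0 without P1 replicate 1), 1 of 8 fibroblast and 1 of 8 chondrocyte genes fell, and 0 of 6 keratinocyte genes were called. In muscle 7 of 8 adipocyte genes rose and 5 of 9 cell cycle genes fell (9 without the 4 arrays named above). Few others were called there: 2 of 8 endothelial (4 without those arrays), 2 of 10 macrophage, 2 of 9 myofibre, 1 of 8 fibroblast and 1 of 12 hepatocyte genes rose, 1 of 8 chondrocyte genes fell, 1 of 8 stellate cell and pericyte genes rose and 1 fell, and 0 of 9 erythroid (3 without those arrays, all falling) and 0 of 6 keratinocyte genes were called.

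The genes whose pattern was most like that of *Egln3*, by Pearson r of log2 values, were *Agtpbp1* (0.946), *Trit1* (0.946) and *Morc4* (0.941) over the 24 liver arrays. Over the 30 muscle arrays they were *Tmcc3* (0.962), *Myl3* (0.962) and *Gas6* (0.961). The points share 6 time points per tissue, so that any gene with a like course over development scores high.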

How the data were processed

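The authors deposited log2 values made by robust multi-array average, which subtracts background, equalises array distributions and summarises probes, 1 per probe set and array of the GeneChip Rat Gene ST platform. Per the labels the submitters used Affymetrix Expression Console, version not given in the sources used here. Each tissue was normalised apart, and changes of dim probe sets are understated. Of 29214 probe sets, the 15310 with 1 gene symbol in the platform annotation were used, and 323 with several and 13581 without were left out. Array background and detection values were not used here, and the number of arrays per group limits precision.

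Linear models were fitted to these log2 values with limma 3.58.1 in R 4.3.3 (lmFit, eBayes), with the 6 time points of a tissue as groups and no covariate, and all 54 arrays for differences between tissues. All p-values are two-sided and Benjamini-Hochberg adjusted over 15310 probe sets, and rose, fell and called mean an adjusted p of at most 0.05. Scripts were tested on simulated data. For each list the text names up to 4 called genes per tissue with the widest change from F22 to P1. For mitophagy those that fell in liver are named as well. The members and lists were chosen with earlier results of these data known. Alternatives were the threshold, a filter on dim probe sets, all probe sets, a trended robust prior, renormalisation, centring, array weights, a block for the replicate number, the probe set of a gene, fewer groups and leaving out arrays. The omissions of liver P1 replicate 1 and of 4 muscle arrays for the lists were chosen after seeing the data. Within a tissue, deviations of arrays with equal replicate numbers at different time points correlated from -0.20 to 0.28 in liver and -0.40 to 0.36 in muscle. The means were 0.00 and -0.02, beside 0.00 for unequal numbers in both tissues. Whether a liver and a muscle sample came from the same animal was not tested. The fit of all 54 arrays takes them as independent. Promoter windows are RefSeq's (GRCr8).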

Additional observations from a re-analysis of the deposited data

Results flagged for a closer look

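Of 120 groups of 4 or 5 values (10 genes in 12 groups), 12 held an array whose gap to its nearest neighbour was wide against the range of the group, where chance flags about 1 in 20, or 6. In liver, P4 replicate 3 was high for 3 genes: *Egln3* read 7.79 there (others 7.36 to 7.41), *Epo* 6.80 (6.29 to 6.35) and *Ankrd37* 7.05 (6.64 to 6.65). The other liver values were *Egln3* 8.21 in F22 replicate 1 (8.73 to 8.75), *Epo* 5.79 in P90 replicate 2 (6.13 to 6.16), *Adm* 7.33 in P90 replicate 3 (7.14 to 7.16) and *Ankrd37* 6.60 in F16 replicate 4 (6.76 to 6.78). In muscle *Epas1* read 8.92 in F16 replicate 4 (9.31 to 9.43) and 9.91 in F22 replicate 2 (10.11 to 10.19). *Ankrd37* read 7.97 in F16 replicate 5 (7.74 to 7.80) and 7.62 in F18 replicate 2 (7.85 to 7.89), and *Hif1a* read 11.62 in F18 replicate 2, where the others were at 11.65. Liver P1 replicate 1 is not among these values, since another P1 array lay near enough to it in each gene.

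The change from F16 to F22 differed between the tissues, as liver minus muscle in the limma fit of all arrays, for *Hif1a* (0.38), *Epas1* (-0.45), *Egln3* (-0.83), *Epo* (-0.39), *Adm* (-1.04), *Ankrd37* (0.30) and *Bnip3* (0.82). The change from F22 to P1 differed for *Epas1* (0.58), *Egln1* (-0.59), *Vegfa* (0.80), *Adm* (-0.32) and *Bnip3* (-1.09).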

How the results depend on the processing

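Over 1020 values of the 10 genes under settings that leave out no single array, 0 called changes turned round, 25 calls were lost and 25 gained. Over 3240 values with 1 array left out, 0 turned round, 92 calls were lost and 21 gained. The count of called genes in liver from P1 to P4 was 2 as reported, 5 at an unadjusted p of at most 0.05 and 1 with only bright probe sets. In liver from P4 to P90 it was 8 as reported and 5 both with only bright probe sets and with each array centred on its median. With only bright probe sets the F-test in muscle called 6, not 10, and the difference between tissues from F16 to F22 held for 4, not 7, since this filter leaves 6 of the 10 genes in each tissue. With 1 array left out, the count ran from 3 to 6 in liver from F22 to P1, from 2 to 5 in liver from P1 to P4, from 4 to 9 in liver from P4 to P90, and from 3 to 6 in muscle from F22 to P1. With the replicate number as a block, the counts were 4 in liver and 5 in muscle from F22 to P1, 7 in liver from P4 to P90 and 4 for the difference between tissues from F22 to P1, and the other counts were unchanged. *Epo*, *Adm*, *Ankrd37* and *Ca9* were dim in both tissues, with means below the median of all named probe sets (7.83 in liver and 8.72 in muscle).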
